A study of Mus musculus with 12 samples.

Results

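Halofuginone (HF) was compared with MAZ1310, which the labels describe as its inactive derivative, in T cells held for 6 h with either compound at 10 nM. The comparison used 6 of the 12 arrays of the series, 3 with HF and 3 with MAZ1310, chosen by compound and time in their titles. The cells were CD4+ CD25- T cells of C57B/6J mice, that is, helper T cells without those bearing the IL-2 receptor alpha chain. In every group, antibodies to CD3 and CD28 on the wells activated the cells, and the medium held TGFb plus IL-6, under which naive cells can become Th17 cells. The other 6 arrays held the same 2 compounds at the same dose for 3 h and were used for the estimate of spread and for the difference between times. Cells without a compound were not analysed here, so all values set HF against MAZ1310. The labels name biological replicates 1 to 3 without saying which mice or cultures they came from. The p-values therefore measure the spread between these samples, which may be technical.

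HF inhibits the prolyl-tRNA synthetase activity of EPRS. Uncharged tRNA activates the kinase GCN2, which phosphorylates the translation factor eIF2a, and the transcription factor ATF4 is then made and switches on genes of amino acid supply. This amino acid response is the best known effect of HF in T cells, where HF is known for blocking Th17 differentiation. Activated T cells at this stage also enlarge, build mitochondria and ribosomes, prepare DNA replication and read IL-6 through STAT3.

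Expression is given as log2 of the deposited intensity, with 1 probe set for each of 18193 genes. Array medians lay between 97.3 and 102 intensity units, and at 6 h arrays correlated across genes at 0.996 to 0.997 within a group and at 0.986 to 0.990 between groups. Of the T cell markers, 9 of 11 were lower with HF, as described below, while limma called 0 of 46 markers of other cells (B, myeloid, erythroid, CD8 or NK, and MHC class II presenting), 5 of which had an unadjusted p under 0.05. Cd74, the invariant chain of MHC class II presenting cells, Mpeg1, a macrophage gene, and Cd8b1, the CD8 beta chain, were called lower with the replicate number as a block. The 3' to 5' signal difference of the actin control, which is larger in degraded RNA, averaged 0.864 ± 0.139 (SD, n = 3) in the MAZ1310 arrays against 1.07 ± 0.261 in the HF arrays (exact permutation p = 0.4, two-sided, where 0.1 is the smallest possible). Within each of the 3 same-numbered pairs the HF array had the larger value, by 0.105 to 0.356. Its part in the results was not tested, but the counts from a fit with both the replicate block and this difference as a covariate are given beside the lists below. In that fit 910 genes were called, 327 higher and 583 lower.

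HF and MAZ1310 differed at 6 h in 3085 genes, or 17% of all, at a Benjamini-Hochberg adjusted p under 0.05 from limma. Of these, 949 (5.22%) rose and 2136 (11.7%) fell, where a gene that rose had a higher level with HF than with MAZ1310 at 6 h, and one that fell a lower level. A change of at least 2-fold was called in 114 genes that rose (0.627%) and 177 that fell (0.973%), and the median of all genes was 0.02. The 3 HF arrays lay wholly above the 3 MAZ1310 arrays in 16.4% of genes and wholly below in 20.4%, or 36.8% in all without overlap. The counts by gene list are plotted against these shares. Changes are log2 differences ± SE, with 3 arrays a group. Replicate 2 had the highest actin difference in each group, and without those 4 arrays 1737 genes were called, 560 higher and 1177 lower.

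**Figure D1:**
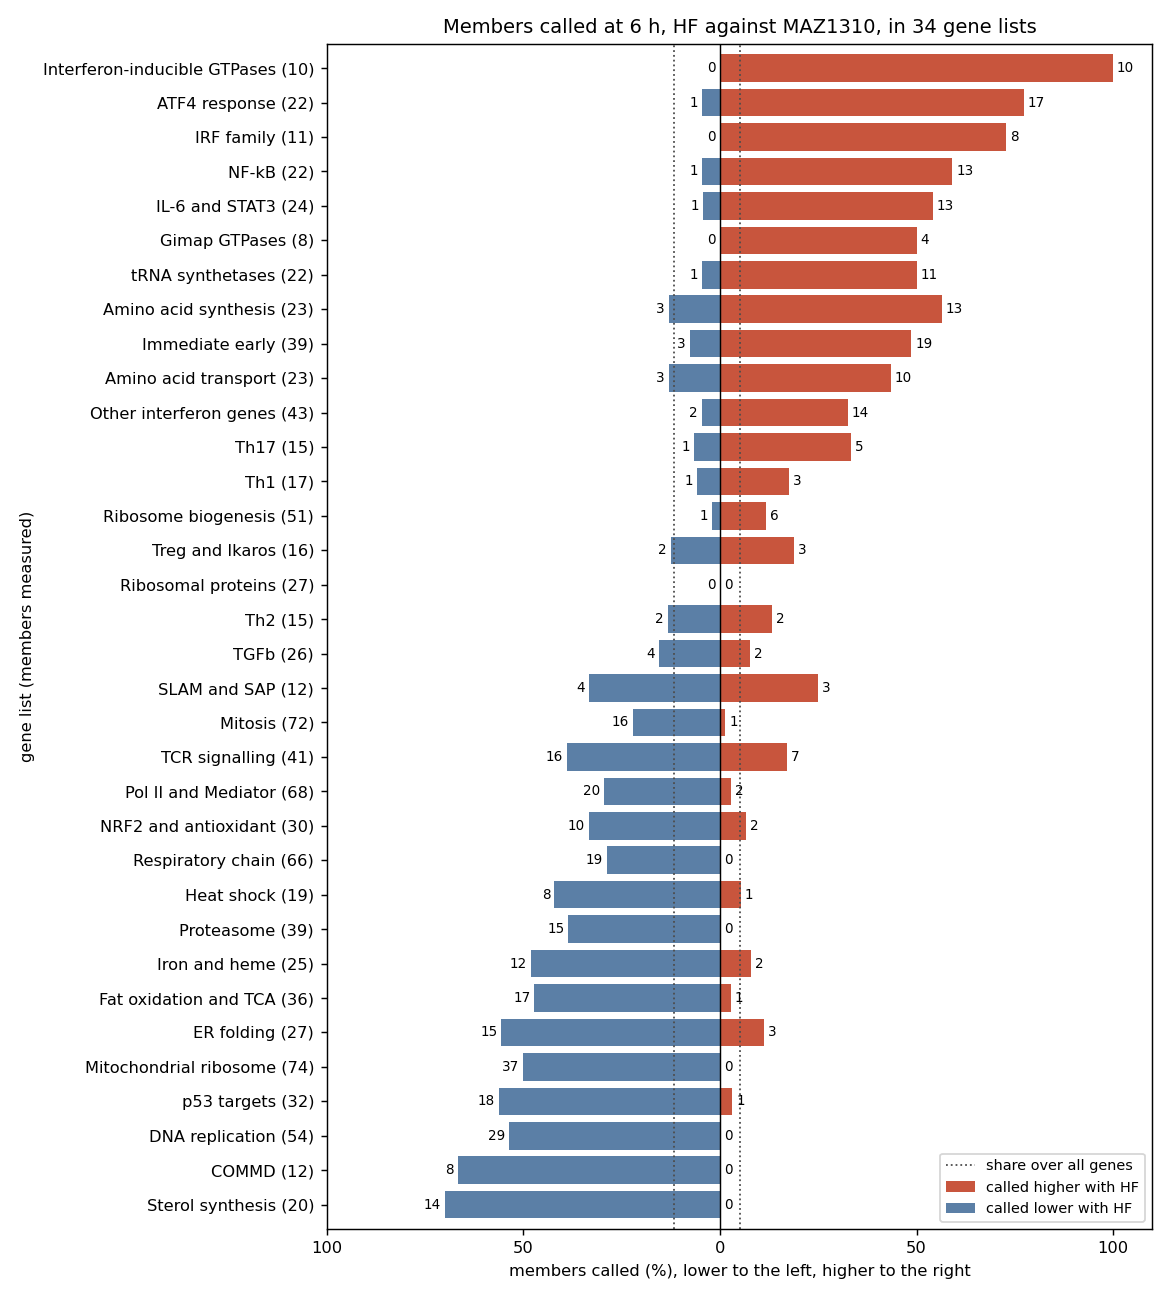
Bars give the percent of each list's measured members called higher (red, right) or lower (blue, left) with HF at 6 h, with the count at the bar's end and the number measured in the label; dotted lines mark 5.22% higher and 11.7% lower over all genes. Interferon-inducible GTPases (10 of 10 higher) and sterol synthesis (14 of 20 lower) lie at the ends of the lists plotted, which leave out the T cell markers (9 of 11 lower).

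Genes of the amino acid response held the largest increases, and several of them differed far more at 6 h than at 3 h. Cth, which forms cysteine from cystathionine, stood at 4.57, 5.08 and 5.03 in the MAZ1310 arrays and at 8.73, 9.03 and 8.93 in the HF arrays. The MAZ1310 values lay below the medians of those arrays, 6.61 to 6.63, so the size of its difference rests on a low signal. The groups did not overlap, which was a condition for naming a gene by size. The difference of 4.01 ± 0.20 (limma, adjusted p = 4.9e-09) compares with 1.10 at 3 h. Atf5, a transcription factor downstream of ATF4, differed by 3.14 ± 0.16 after 1.23 at 3 h, and Vegfa, an endothelial growth factor gene that ATF4 can induce, by 2.54 ± 0.09 after 1.70. Slc7a3, a carrier of cationic amino acids, stood at 6.86, 7.02 and 7.03 with MAZ1310 and at 9.31, 9.86 and 9.77 with HF. It differed by 2.67 ± 0.17 after 1.01 at 3 h, and Slc6a9, a glycine carrier, by 2.50 ± 0.10 after 1.29. For all of these the difference between the times was itself called. They were named by the size of their 6 h difference, which favours a larger value at 6 h than at 3 h. Cth, Atf5 and Slc7a3 were also named because the difference between times was called and large, so these calls are no separate support. Trib3, a pseudokinase that restrains this response, reached 4.28 ± 0.23, and Gpt2, an alanine transaminase of mitochondria, 4.06 ± 0.11.

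In the ATF4 list 17 of 22 measured genes rose and 1 fell, with a median of 1.58. At 3 h 18 had been higher and 0 lower, with a median of 1.19. The difference between times was called in the higher direction for 6 members and in the lower direction for 1. Chac1, which degrades glutathione (3.09 ± 0.14), Ddit3, the stress factor CHOP (2.30 ± 0.12), Cebpb (3.01 ± 0.11), Pck2 (2.89 ± 0.11) and Atf4 itself (0.66 ± 0.08) were among those that rose. The member that fell was Ddit4, which restrains the growth kinase complex mTORC1. It stood at 10.68, 10.80 and 10.71 with MAZ1310 and at 10.29, 10.16 and 10.25 with HF, a difference of -0.50 ± 0.11 (adjusted p = 0.0059). At 3 h its difference had been 1.35, so its sign differed between the times, with a called difference between them of -1.85. Ddit4 averaged 9.01 at 3 h and 10.73 at 6 h with MAZ1310, and 10.37 and 10.23 with HF. The call of Ddit4 at 6 h was lost in the fit with block and actin difference.

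Supply of amino acids and charged tRNA was described by 3 further lists. Of 23 enzymes of amino acid synthesis 13 rose and 3 fell, among them Asns, asparagine synthetase (2.29 ± 0.17), and Psph, of serine synthesis (1.78 ± 0.16), against Asl, argininosuccinate lyase (-0.83 ± 0.12). Of 23 amino acid transporters 10 rose and 3 fell, with Slc7a5, the light chain of LAT1, at 1.24 ± 0.09 and Slc1a4 at 1.23 ± 0.10. Among 22 genes of cytosolic tRNA synthetases and their scaffold proteins 11 rose and 1 fell. Aars rose by 1.37 ± 0.10, Cars by 1.14 ± 0.13, Yars by 1.10 ± 0.12 and Sars by 1.08 ± 0.09. Eprs, the target of HF, stood at 11.84, 11.79 and 11.76 with MAZ1310 and at 12.54, 12.51 and 12.54 with HF (0.74 ± 0.10, adjusted p = 0.00012). Of 16 mitochondrial synthetases Ears2 rose (0.34 ± 0.10) and Cars2 (-0.61 ± 0.10) and 1 other fell. Those shares, 6.25% and 12.5%, were near the 5.22% higher and 11.7% lower over all genes. Ears2 also lost its call without the arrays numbered 2 and over the mean of its probe sets. The calls of Eprs and Ears2 were lost in the fit with block and actin difference, and those of the 3 lists were then 9 higher and 1 lower, 9 and 0, and 7 and 0.

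Several of these genes carry the C/EBP-ATF composite site, to which ATF4 binds with a C/EBP partner, close to their start. Searched as TGATGNAA on both strands, the site was found in 8 of 20 ATF4-list promoters (40%) and 5 of 15 promoters of the cytosolic synthetase list (33.3%). In amino acid synthesis it was found in 2 of 18 promoters (11.1%). Of 14452 promoters of measured genes 3.24% held it. Promoters run from 250 bases before to 50 bases after the start, in RefSeq on GRCm38.p6. The stretches below lie upstream of the start, 5' to 3' on the gene's strand, with the site in capitals. They are shown because these genes rose by 1.69 to 3.09.
Chac1, chr2:119351034-119351071, plus strand: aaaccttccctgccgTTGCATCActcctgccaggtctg
Asns, chr6:7693210-7693247, minus strand: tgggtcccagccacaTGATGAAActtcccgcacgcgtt
Atf3, chr1:191183421-191183458, minus strand: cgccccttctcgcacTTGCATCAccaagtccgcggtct

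The interferon-inducible GTPases, which attack vacuoles of intracellular microbes, were the list with the highest share of called genes. All 10 measured members rose, by 0.99 to 3.08, with a median of 1.79, and 9 of them rose at least 2-fold. Gbp7 stood at 9.16, 8.29 and 8.84 with MAZ1310 and at 12.05, 11.51 and 11.98 with HF. Every HF array lay above every MAZ1310 array, again a condition for naming by size, with a difference of 3.08 ± 0.19 (limma, adjusted p = 5.1e-08). Gbp8 rose by 2.96 ± 0.20, Gbp6 by 2.60 ± 0.13 and Irgm2, of the immunity-related GTPase family, by 1.99 ± 0.18. At 3 h, where 2.83% of all genes were called higher and 6.66% lower, 6 of the 10 had been called higher, with a median of 0.63, and for 8 of 10 the difference between times was called. All 10 were again called in the fit with block and actin difference and without the arrays numbered 2.

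These differences stood on levels that were lower at 6 h than at 3 h with both compounds. Gbp7 averaged 11.80 at 3 h and 8.76 at 6 h with MAZ1310, against 13.02 and 11.84 with HF. With MAZ1310 all 10 GTPase genes were called lower at 6 h than at 3 h, with a median of -2.27, and with HF 9 of 10 were, with a median of -1.06. Over all genes 7.64% were called lower over time with MAZ1310 and 7.27% with HF. The plot of change over time shows both distributions below 0. Slc14a1, a urea transporter gene outside this family, had the same shape: it averaged 8.32 and 5.61 at the 2 times with MAZ1310 and 9.34 and 8.33 with HF. It stood at 5.44, 5.51 and 5.88 with MAZ1310 and at 8.21, 8.12 and 8.66 with HF at 6 h, a difference of 2.72 ± 0.16.

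**Figure D2:**
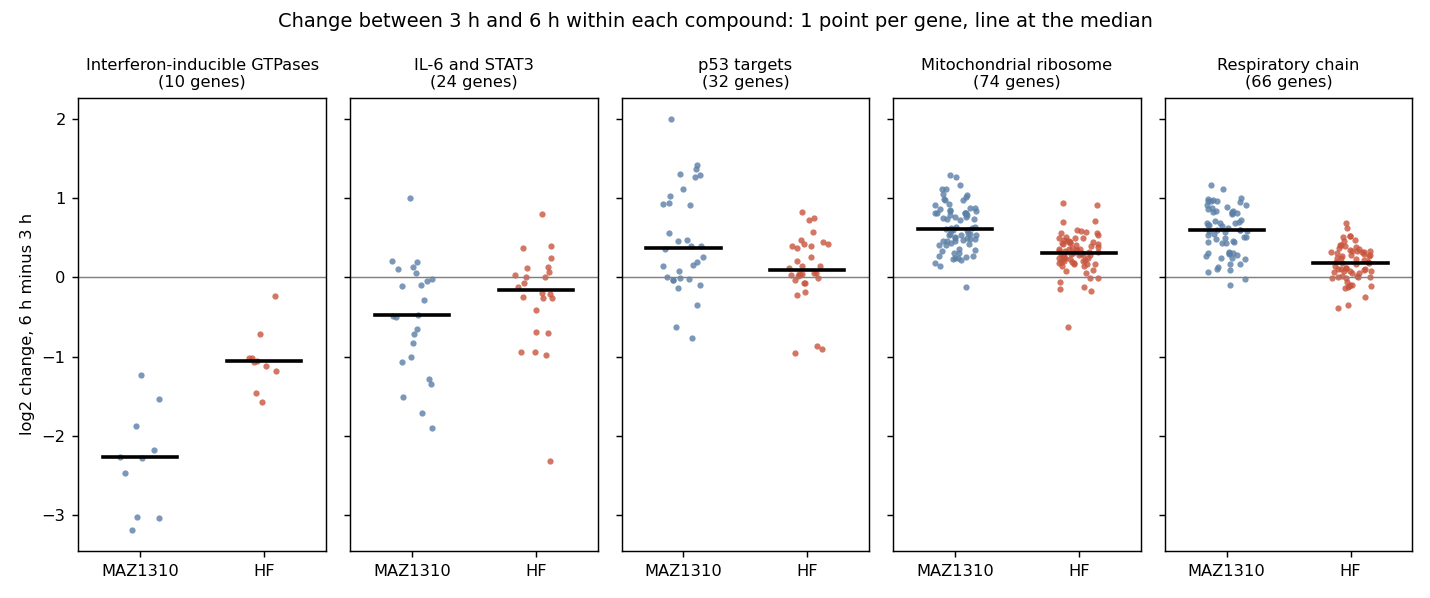
Each point is 1 gene's log2 change from 3 h to 6 h with MAZ1310 (blue) or HF (red), and black lines are medians, for 5 lists. GTPase medians are -2.27 and -1.06, and mitochondrial ribosome medians 0.60 and 0.31.

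Other genes of the interferon response rose in part. Of 43 measured, 14 rose and 2 fell, with a median of 0.24. Parp14, an ADP-ribosyltransferase, rose by 1.69 ± 0.19, Tap1, a peptide transporter of antigen presentation, by 1.56 ± 0.08, and Nlrc5, the transactivator of MHC class I genes, by 1.11 ± 0.10. The immunoproteasome subunits differed in direction. Psmb9 stood at 9.26, 8.86 and 9.39 with MAZ1310 and at 10.41, 10.03 and 10.47 with HF (1.13 ± 0.14), while Psmb8 stood at 10.21, 9.96 and 10.24 against 9.53, 9.05 and 9.61 (-0.74 ± 0.16). Psmb10 fell by 0.53 ± 0.13. In the fit with block and actin difference 10 members were higher and 0 lower, so the calls of Psmb8 and Psmb10 were lost.

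Of the interferon regulatory factors and their partners 8 of 11 rose and 0 fell. Irf1, a transcription factor that interferon induces, stood at 10.31, 10.07 and 10.10 with MAZ1310 and at 11.67, 11.41 and 11.60 with HF, without overlap (1.40 ± 0.11, adjusted p = 3.2e-07). Irf2 rose by 0.98 ± 0.17, Irf9, a DNA-binding factor of the type I interferon response, by 0.83 ± 0.19, and Irf8 by 0.48 ± 0.11. The count of 8 became 3 in the fit with block and actin difference and 4 without the arrays numbered 2, and the call of Irf8 was lost in both. In the MHC class I pathway 5 of 12 genes rose and 1 fell, with H2-M3, which presents formylated peptides, at 0.51 ± 0.10. With block and actin difference 2 were higher and 0 lower.

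Promoters of these genes were searched for the gamma activated site, TTCNNNGAA, bound by STAT dimers, and for the interferon response element, a pair of GAAA blocks with 2 bases between them, bound by IRF proteins, on both strands. The response element was found in 6 of 7 GTPase promoters (85.7%) against 3.63% of measured genes, and the gamma activated site in 3 of 7 (42.9%) against 8.57%. In the other interferon list the shares were 13 of 32 (40.6%) and 12 of 32 (37.5%). Among IRF genes they were 1 of 11 (9.09%) and 4 of 11 (36.4%). Among IL-6 and STAT3 genes they were 1 of 21 (4.76%) and 3 of 21 (14.3%). The stretches of Gbp7 and Irgm2, with both sites, and of Irf1, with the gamma activated site, are shown because they rose together. Capitals mark the sites, which do not overlap in these stretches.
Gbp7, chr3:142530215-142530307, plus strand: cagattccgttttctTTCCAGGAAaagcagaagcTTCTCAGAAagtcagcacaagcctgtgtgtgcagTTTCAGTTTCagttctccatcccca
Irgm2, chr11:58214887-58214937, plus strand: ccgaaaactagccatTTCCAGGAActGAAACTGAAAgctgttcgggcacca
Irf1, chr11:53769909-53769947, plus strand: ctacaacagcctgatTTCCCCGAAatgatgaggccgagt

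Il6st, Stat3 and Socs3, of IL-6 receptor signalling, were level between the compounds at 3 h and higher with HF at 6 h. Il6st, the signalling receptor chain gp130, averaged 12.72 with MAZ1310 and 12.74 with HF at 3 h. At 6 h it stood at 11.21, 11.28 and 11.13 with MAZ1310 and at 12.07, 12.11 and 11.95 with HF, without overlap (0.84 ± 0.09, adjusted p = 1.1e-05). Stat3, the transcription factor downstream of it, differed by 0.01 at 3 h and 0.60 ± 0.09 at 6 h, and Socs3, its feedback inhibitor, by -0.07 and 0.85 ± 0.16. For these 3 genes the difference between times was called. Il6ra, the ligand-binding chain, differed by 0.94 at 3 h and 0.34 ± 0.17 (adjusted p = 0.21) at 6 h. In the whole list 13 of 24 genes rose and 1, Il21r, the IL-21 receptor, fell (-0.63 ± 0.11). At 3 h 5 of the 24 had already been higher and 1 lower, when 2.83% of all genes were higher and 6.66% lower. The difference between times was called for 4 of the 24, each in the higher direction. The calls of Stat3 and Socs3 were lost in the fit with block and actin difference, where 5 of the list were higher, and without the arrays numbered 2 there were 9.

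Immediate early and NF-kB genes, which antigen receptor and cytokine signals switch on within minutes to hours, rose more often than they fell. Of 39 immediate early genes 19 rose and 3 fell, and 17 were not called. Egr1 stood at 12.52, 12.65 and 12.65 with MAZ1310 and at 13.75, 13.73 and 13.73 with HF (1.13 ± 0.11). Fosl2 rose by 1.06 ± 0.10, Fos by 0.98 ± 0.14, Junb by 0.85 ± 0.09 and Zfp36, which destabilises cytokine mRNAs, by 0.98 ± 0.12. Ier3, a stress and survival gene, fell: at 3 h it differed by -0.07, and at 6 h it stood at 9.54, 9.16 and 9.65 with MAZ1310 and 7.97, 7.57 and 7.73 with HF (-1.69 ± 0.13). Its level with MAZ1310 had averaged 8.21 at 3 h. In the fit with block and actin difference 12 of the list were higher and 1 lower.

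Of 22 NF-kB genes 13 rose and 1 fell. Icam1, the adhesion ligand of LFA-1, stood at 10.61, 10.50 and 10.39 with MAZ1310 and at 12.14, 11.81 and 12.02 with HF (1.49 ± 0.09, adjusted p = 5.5e-08). Nfkbiz, an atypical inhibitor that Th17 cells use, rose by 1.08 ± 0.09, the kinase gene Map3k14 by 0.78 ± 0.11 and Tnfaip3, the feedback inhibitor A20, by 0.77 ± 0.12. Tnip1, a partner of A20, fell (-0.34 ± 0.10), a call lost after cyclic loess, with block and actin difference and without the arrays numbered 2. In the fit with block and actin difference the list had 7 higher and 0 lower. Myc, the growth transcription factor, rose by 0.79 ± 0.11, and Mnt, which opposes it, by 0.91 ± 0.12 after -0.05 at 3 h.

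Genes of helper T cell programs split. Tbx21, the Th1 lineage factor T-bet, stood at 10.93, 10.70 and 10.85 with MAZ1310 and at 12.29, 12.12 and 12.26 with HF. The groups did not overlap (1.39 ± 0.11, adjusted p = 6.6e-07), and the difference at 3 h was 0.60. Il12rb2, a chain of the IL-12 receptor, rose by 1.02 ± 0.18 after 0.08 at 3 h, while Gzmb, granzyme B, fell by 0.71 ± 0.14. In all, 3 of 17 Th1 genes rose and 1 fell, against 1 and 0 with block and actin difference. The calls of Il12rb2 and Gzmb were lost in the fit with block and actin difference.

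Of 15 Th17 genes 5 rose and 1 fell, and with block and actin difference 2 were higher and 1 lower. Batf, an AP-1 factor that opens Th17 loci, rose by 0.75 ± 0.10, and Maf, which drives IL-10 and IL-21, fell by 0.89 ± 0.17. Il17a, the Th17 cytokine, stood at 10.53, 9.30 and 9.70 with MAZ1310 and at 10.71, 9.54 and 9.80 with HF. The groups overlapped, and the difference was 0.17 ± 0.34 (adjusted p = 0.81, 95% interval -0.55 to 0.89). Rora, a Th17 nuclear receptor, differed by -0.18 ± 0.19 (adjusted p = 0.63, interval -0.59 to 0.23). Of 15 Th2 genes 2 rose, Gfi1 (0.70 ± 0.08) and Nfil3 (0.64 ± 0.13), and 2 fell, Maf and the chemokine receptor Ccr8 (-1.77 ± 0.16). Gata3, the Th2 lineage factor, stood at 7.61, 7.78 and 7.55 against 6.95, 7.42 and 7.14, without overlap (-0.48 ± 0.18, adjusted p = 0.1), and was called lower with the replicate block and when only the 6 arrays of 6 h were fitted. Foxp3, the regulatory T cell factor, differed by 0.15 ± 0.14 (adjusted p = 0.56). Of 16 Treg and Ikaros genes 3 rose and 2 fell, with Ikzf4 at 0.74 ± 0.09 and Ikzf1 at -0.66 ± 0.11. With block and actin difference the Th2 counts were 1 higher and 2 lower, and the Treg and Ikaros counts 2 and 1.

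Of 26 TGFb genes 2 rose and 4 fell, near the shares over all genes. Smad7, the feedback inhibitor of TGFb receptors, differed by -0.03 ± 0.10 (adjusted p = 0.89). Tgfbr2, the ligand-binding receptor chain, stood at 10.29, 10.42 and 10.45 with MAZ1310 and at 9.68, 9.48 and 9.79 with HF (-0.74 ± 0.15) after -0.06 at 3 h. Id2 and Id3, inhibitors of E proteins, fell by 0.88 ± 0.16 and 0.79 ± 0.19, Pmepa1, a feedback inhibitor, by 0.78 ± 0.15, and Tgif1, a corepressor, rose by 0.80 ± 0.18. The 4 calls of lower genes were lost in the fit with block and actin difference.

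Of 30 cytokine genes 4 rose and 2 fell. Csf2, the growth factor GM-CSF, stood at 8.14, 7.72 and 7.70 with MAZ1310 and at 9.23, 9.02 and 9.24 with HF (1.31 ± 0.20, adjusted p = 0.00024), after 0.34 at 3 h. Lif, of the IL-6 family, rose by 0.76 ± 0.13 and Tnf by 0.48 ± 0.10, while Ltb, lymphotoxin beta, fell by 0.57 ± 0.14. Il2 differed by 0.09 ± 0.10 (adjusted p = 0.66). Csf2 kept its call in the fit with block and actin difference, and Lif, Tnf and Ltb lost it, leaving 2 of the list higher and 0 lower.

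**Figure D3:**
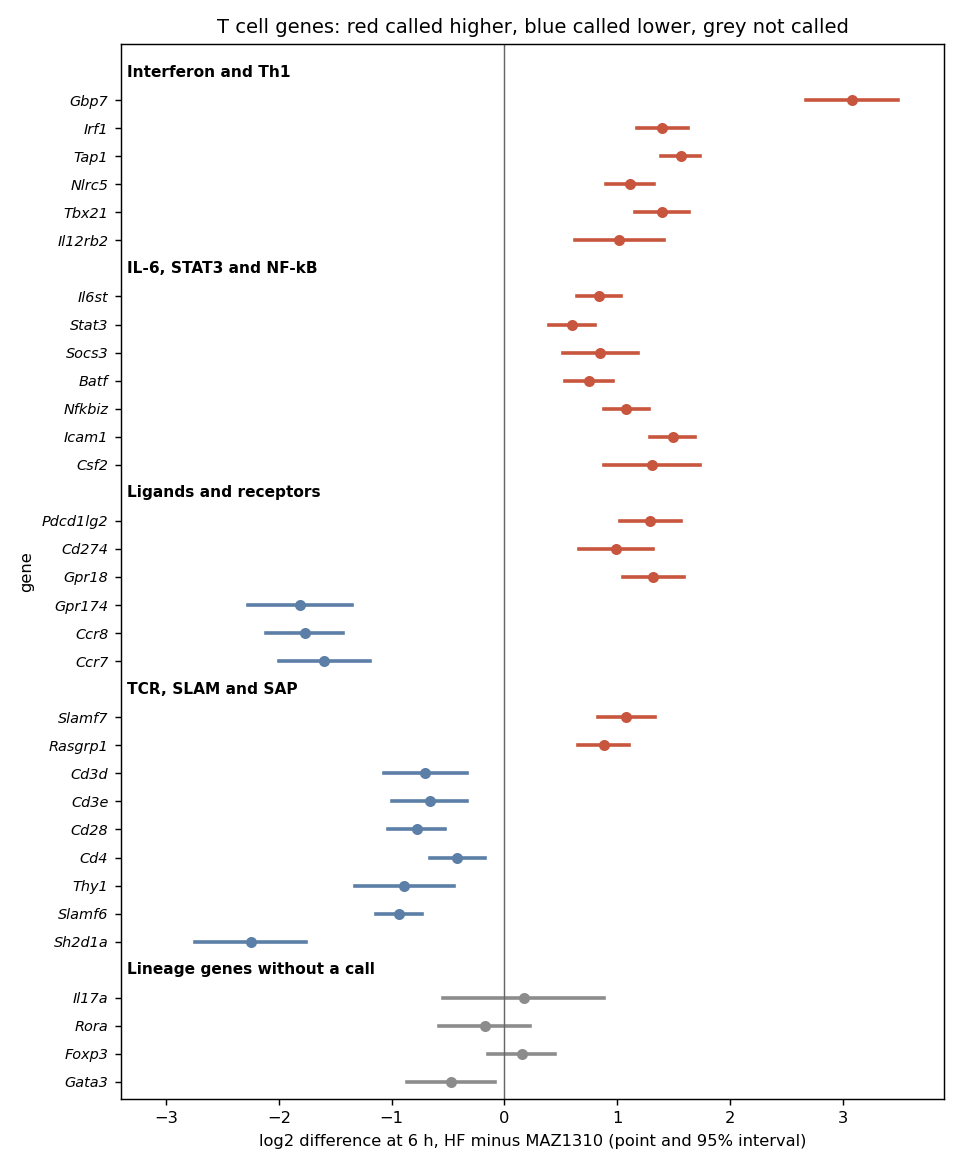
Points are log2 differences at 6 h, HF minus MAZ1310, with 95% intervals from limma, for 32 T cell genes in 5 groups; red and blue mark calls. Gbp7 (3.08) and Sh2d1a (-2.25) are the extremes, and the intervals of Il17a, Rora and Foxp3 include 0.

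The T cell receptor machinery held changes in both directions, most of them decreases. Of 41 genes 7 rose and 16 fell. Rasgrp1, which activates Ras after receptor triggering, rose by 0.88 ± 0.11, and the ubiquitin ligase Cblb, which restrains the receptor, by 0.79 ± 0.10. Ubash3a and Ubash3b, phosphatase-related suppressors of the receptor, fell by 1.02 ± 0.13 and 0.87 ± 0.17, and the phosphatase Ptpn22 by 0.79 ± 0.14. Cd3d stood at 11.60, 11.58 and 11.71 with MAZ1310 and at 10.99, 10.70 and 11.09 with HF (-0.70 ± 0.17), Cd3e fell by 0.66 ± 0.16, and the costimulatory receptor Cd28 by 0.78 ± 0.12. In the fit with block and actin difference 4 were higher and 3 lower, and Cd3d, Cd3e and Ubash3b lost their calls.

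T cell markers as a list fell in 9 of 11, with a median of -0.52, and at 3 h 1 had been lower. Cd4, the coreceptor, stood at 9.61, 9.80 and 9.58 with MAZ1310 and at 9.24, 9.29 and 9.22 with HF (-0.42 ± 0.11, adjusted p = 0.017), and Thy1 fell by 0.89 ± 0.21. The summed intensity of the 11 markers was 31560 to 32930 in the MAZ1310 arrays and 22630 to 24230 in the HF arrays. In bulk RNA fewer cells of a type and less RNA per cell cannot be told apart. The count of 9 became 1 in the fit with block and actin difference and 2 without the arrays numbered 2, and the part of RNA quality in it was not tested.

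Sh2d1a, the adaptor SAP that couples SLAM receptors to Fyn, stood at 8.99, 8.60 and 8.69 with MAZ1310 and at 6.97, 6.22 and 6.35 with HF. The gap between the groups is wide beside their spread (-2.25 ± 0.23, adjusted p = 6.6e-06). Of the 12 SLAM and SAP genes 3 rose and 4 fell, so the receptors split. Slamf7 rose by 1.08 ± 0.12 and Slamf1 by 0.74 ± 0.09, while Slamf6, which signals through SAP, fell by 0.93 ± 0.10 after 0.13 at 3 h, and Cd48 by 0.89 ± 0.18. The call of Cd48 was lost in the fit with block and actin difference, where 2 of the list were higher and 2 lower.

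Homing receptors and receptors for lipid ligands included Ccr7, Gpr174 and Gpr18, whose difference between times was called. Ccr7, which guides T cells into lymph nodes, stood at 9.74, 9.81 and 9.32 with MAZ1310 and at 7.97, 7.94 and 8.17 with HF (-1.60 ± 0.19), after -0.37 at 3 h. With MAZ1310 it had averaged 8.29 at 3 h. Gpr174, a lysophosphatidylserine receptor, stood at 8.57, 8.87 and 8.73 against 7.33, 6.44 and 6.97 (-1.81 ± 0.22), after -0.26 at 3 h. In contrast Gpr18 rose by 1.32 ± 0.13, Gpr183, which reads oxysterols, by 1.12 ± 0.13, and P2ry10 by 1.20 ± 0.30, the last a call lost without the arrays numbered 2. Of 19 genes in this receptor list 6 rose and 2 fell. Bach2, a repressor of effector differentiation, fell by 1.01 ± 0.13, and Satb1, a chromatin organiser, rose by 0.76 ± 0.09. In the list of naive cell and homing genes, which holds Bach2, Satb1 and Ccr7, 4 of 26 rose and 7 fell. Of 25 genes of chemokines and their receptors 1 rose and 3 fell, near the shares over all genes. With block and actin difference the counts of these lists were 3 and 4, and 1 and 3.

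Of 18 genes of inhibitory and costimulatory receptors and their ligands 5 rose and 2 fell, against 4 and 1 with block and actin difference. Pdcd1lg2, PD-L2, stood at 9.03, 9.13 and 9.38 with MAZ1310 and at 10.50, 10.27 and 10.64 with HF (1.29 ± 0.13), and Cd274, PD-L1, rose by 0.99 ± 0.15. Pvr, a ligand of TIGIT and CD226, rose by 1.00 ± 0.09. Pdcd1, their receptor PD-1, fell by 0.48 ± 0.14, a call lost in the fit with block and actin difference and without the arrays numbered 2.

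Targets of p53, the DNA damage and stress factor, were mostly lower. Of 32 measured 18 fell and 1 rose, with a median of -0.37, and 11 fell at least 2-fold. Psrc1, a microtubule gene of the spindle, stood at 9.69, 10.35 and 9.85 with MAZ1310 and at 6.76, 7.21 and 7.15 with HF (-2.92 ± 0.21, adjusted p = 1.7e-07). With MAZ1310 it had averaged 7.96 at 3 h and with HF 6.64, so the 6 h level with HF stayed below the 3 h level with MAZ1310. Ddias, a survival gene, fell by 2.65 ± 0.17, Ccng1, cyclin G1, by 2.20 ± 0.11, Gtse1, which exports p53 from the nucleus, by 1.82 ± 0.10, and Ei24 by 1.80 ± 0.10. Cdkn1a, the cell cycle inhibitor p21, stood at 12.16, 12.18 and 12.15 against 10.98, 10.98 and 11.04 (-1.16 ± 0.10), after -0.54 at 3 h. Mdm2, the ubiquitin ligase of p53, fell by only 0.39 ± 0.11 (adjusted p = 0.025), a call lost when any of 5 single arrays of 6 h was left out, without suffixed probe sets, with block and actin difference, and without the arrays numbered 2. Btg2, which also responds to T cell activation, was the member that rose (0.65 ± 0.12). For 8 members the difference between times was called, each time with a more negative value at 6 h, and 11 were lower in the fit with block and actin difference.

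DNA replication genes fell in 29 of 54, with a median of -0.31. Rpa3, a subunit of the single-strand binding complex, stood at 8.94, 8.99 and 8.90 with MAZ1310 and at 7.68, 7.66 and 7.86 with HF (-1.21 ± 0.14). Rrm2, of ribonucleotide reductase, fell by 0.96 ± 0.15, Uhrf1, which keeps DNA methylation, by 0.91 ± 0.12, and Dut, which clears dUTP, by 0.84 ± 0.10. Of 35 genes of nucleotide metabolism 2 rose (5.71%) and 6 fell (17.1%), against 5.22% and 11.7% over all genes. Prps2, of phosphoribosyl pyrophosphate synthesis, differed by -1.003 ± 0.09 and Dck, deoxycytidine kinase, by -0.73 ± 0.16. Repair genes fell in 14 of 67 and rose in 1, with the translesion polymerase Polk at -1.76 ± 0.13 and the kinase Atr at 0.53 ± 0.09. Dck and Atr lost their calls with block and actin difference, where nucleotide metabolism had 0 higher and 3 lower and repair 0 and 4. Replication genes lower were 11 with block and actin difference and 17 without the arrays numbered 2. The calls of Rrm2 and Dut were lost without suffixed probe sets.

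Mitosis genes as a list were nearer to the share of all genes, with 16 of 72 lower, 1 higher and a median of -0.02. Their median level was low, 6.64 with MAZ1310 and 6.57 with HF, against 7.19 and 7.17 over all genes. In genes of low signal a median near 0 does not show that they were unchanged. Besides Psrc1 and Gtse1, which the p53 list also holds, Smc2, a condensin subunit, fell by 1.25 ± 0.14 on 1 of its 5 probe sets, and Spc25, of the kinetochore, by 0.82 ± 0.11 after -0.02 at 3 h, a call lost without suffixed probe sets. The lower count of 16 became 6 with block and actin difference, and 9 both without the arrays numbered 2 and without suffixed probe sets. Of 34 genes of G1 control 6 fell and 0 rose, again 6 with block and actin difference. Rbl2, of the retinoblastoma family, fell by 0.99 ± 0.13, Cks1b by 0.77 ± 0.14 and the cyclin gene Ccnd3 by 0.73 ± 0.07. Tubb5, a beta tubulin, stood at 11.74, 11.85 and 11.87 with MAZ1310 and at 10.43, 10.52 and 10.42 with HF (-1.36 ± 0.09).

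Genes of mitochondrial protein synthesis and respiration were lower with HF at 6 h. Of 74 mitochondrial ribosomal proteins 37 fell and 0 rose, with a median of -0.35, against 8 lower and 3 higher at 3 h. Mrpl34 stood at 9.69, 9.89 and 9.66 with MAZ1310 and at 8.40, 8.52 and 8.55 with HF (-1.26 ± 0.15). Mrps25 fell by 1.11 ± 0.16, Mrpl18 by 0.96 ± 0.12 and Mrpl40 by 0.95 ± 0.11. Of 66 respiratory chain genes 19 fell and 0 rose, with a median of -0.35, against 0 lower and 1 higher at 3 h. Ndufb9, of complex I, stood at 10.62, 10.68 and 10.78 with MAZ1310 and at 9.84, 9.61 and 9.85 with HF (-0.93 ± 0.14), and Ndufv3 and Ndufa4 fell by 0.88 ± 0.16 and 0.85 ± 0.17.

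Set against their own 3 h levels, these genes were called higher at 6 h in different numbers with the 2 compounds, which share arrays with the comparison above. With MAZ1310 62 of 74 mitochondrial ribosome genes were called higher at 6 h than at 3 h, with a median of 0.60, and with HF 29 were, with a median of 0.31. Respiratory chain genes were called higher at 6 h in 43 with MAZ1310 and in 9 with HF, with medians of 0.59 and 0.18. Over all genes 12.1% were called higher over time with MAZ1310 and 8.33% with HF. The 37 lower mitochondrial ribosome genes became 5 in the fit with block and actin difference and 22 without the arrays numbered 2, and the 19 of the respiratory chain became 0 and 7.

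Fat oxidation and the citric acid cycle fell in 17 of 36 and rose in 1. Gcdh, glutaryl-CoA dehydrogenase of lysine and tryptophan breakdown, stood at 7.90, 7.998 and 7.54 with MAZ1310 and at 5.84, 5.66 and 5.95 with HF (-1.99 ± 0.14), after -0.51 at 3 h. Hadh, of fat oxidation, fell by 1.50 ± 0.10, Idh2 by 1.23 ± 0.11 and Acadm by 0.91 ± 0.09. The list had 5 lower with block and actin difference and 10 without the arrays numbered 2, and Idh2 lost its call without suffixed probe sets. Lonp1, the mitochondrial matrix protease and a known target of ATF4, rose. It averaged 9.54 and 9.67 with the 2 compounds at 3 h, and at 6 h it stood at 9.47, 9.62 and 9.56 with MAZ1310 and at 10.91, 10.97 and 11.03 with HF (1.42 ± 0.11, adjusted p = 2.8e-07). Hspa9, the matrix chaperone mortalin, rose by 0.57 ± 0.10, a call lost with block and actin difference, while Atp23, an inner membrane protease, fell by 0.81 ± 0.12.

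Glycolysis and hypoxia genes split, with 5 of 30 higher and 7 lower at 6 h, against 1 higher and 12 lower at 3 h. Hk2, hexokinase, stood at 11.33, 11.24 and 11.22 with MAZ1310 and at 11.99, 12.02 and 11.99 with HF (0.73 ± 0.16), after -0.27 at 3 h, and Pfkp, phosphofructokinase, rose by 0.60 ± 0.11 after -0.08. Tpi1, triose phosphate isomerase, fell by 1.17 ± 0.11 and Aldoa, aldolase, by 0.58 ± 0.09. Of these Tpi1 kept its call in the fit with block and actin difference, where 1 of the list was higher and 3 lower.

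Folding genes of the endoplasmic reticulum fell in 15 of 27 and rose in 3, with a median of -0.53. Fkbp2, a prolyl isomerase, stood at 9.71, 9.96 and 9.80 with MAZ1310 and at 8.12, 8.16 and 8.13 with HF (-1.68 ± 0.17), after -0.46 at 3 h. The disulfide isomerases Pdia3 and Pdia4 fell by 1.65 ± 0.10 and 1.41 ± 0.10, each on 1 of 2 probe sets, and Creld2, an isomerase of the unfolded protein response, by 1.30 ± 0.12. Atf6, a sensor of unfolded proteins, rose by 0.76 ± 0.09 after 0.14 at 3 h, and Dnajb9, a cochaperone, by 0.50 ± 0.10 after -0.12, the latter a call lost without the arrays numbered 2. Hspa5, the chaperone BiP, differed by -0.05 ± 0.07 (adjusted p = 0.73). In the fit with block and actin difference 2 were higher and 7 lower.

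Later steps of the secretory pathway were described by 3 lists. Of 40 genes of translocation and glycosylation 10 fell and 1 rose, with Sec11c, of signal peptidase, at -0.91 ± 0.16 and Rpn1, of oligosaccharyl transferase, at -0.79 ± 0.10, both calls lost without suffixed probe sets. In vesicle coats and Golgi transport 8 of 34 fell. Of 17 genes of protein degradation from this compartment 8 fell and 3 rose, led by Herpud1, an ATF4 and unfolded protein target, at 1.41 ± 0.10. The lower counts became 1, 0 and 0 in the fit with block and actin difference, and 5, 5 and 1 without the arrays numbered 2.

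Sterol synthesis fell in 14 of 20 genes with 0 higher and a median of -0.83, and 12 were lower in the fit with block and actin difference. Idi1, which makes dimethylallyl diphosphate, stood at 11.43, 11.33 and 11.08 with MAZ1310 and at 9.61, 9.75 and 9.68 with HF (-1.60 ± 0.14). Fdps fell by 1.28 ± 0.11 and Hmgcs1, HMG-CoA synthase, by 1.20 ± 0.12 on all 5 of its probe sets. Fdft1, squalene synthase, fell by 1.33 ± 0.12 on its brightest probe set, while another of its probe sets was called higher. At 3 h 14 had been lower too, with a median of -0.50. The CCAAT box, searched as CCAAT on both strands and bound by NF-Y, was found in all 16 sterol promoters and in 19 of 23 folding promoters (82.6%). Over measured genes the share was 42%. In the other lists searched it ran from 27.3% of IRF promoters to 66.7% in the cytosolic synthetase list. It was 65% in the ATF4 list, which mostly rose, and 63.6% in the p53 list, which mostly fell. The stretch of Idi1, with 2 boxes in capitals on the minus strand of the gene, is shown because it had the largest decrease of the list.
Idi1, chr13:8885546-8885605, plus strand: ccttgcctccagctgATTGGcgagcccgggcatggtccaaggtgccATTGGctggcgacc

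Redox genes fell more often than they rose, while their regulator rose. More of them had been lower at 3 h, 15 of 30 with 0 higher. Nfe2l2, the antioxidant factor NRF2, stood at 9.37, 9.23 and 9.14 with MAZ1310 and at 10.51, 10.26 and 10.50 with HF (1.18 ± 0.12), after 0.33 at 3 h. Of 30 genes of the list 10 fell and 2 rose, the other one being Slc7a11, the cystine carrier that ATF4 also drives (0.83 ± 0.16). Cat, catalase, stood at 8.71, 8.63 and 8.62 against 6.93, 6.75 and 7.15 (-1.71 ± 0.13), and Prdx4, Prdx2 and Gpx1, which remove peroxides, fell by 1.13 ± 0.13, 1.11 ± 0.10 and 0.95 ± 0.10. These 6 genes kept their calls in the fit with block and actin difference, where 8 of the list were lower. Of 25 iron and heme genes 12 fell and 2 rose, with Alad and Urod, of heme synthesis, at -1.15 ± 0.10 and -0.94 ± 0.09. Alad lost its call without suffixed probe sets, and with block and actin difference 0 of the list were higher and 5 lower.

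COMMD genes and their CCDC partners, whose proteins sort membrane receptors through endosomes, fell in 8 of 12 with 0 higher and 0 called at 3 h. Commd3 stood at 9.37, 9.51 and 9.56 with MAZ1310 and at 8.28, 8.04 and 8.42 with HF (-1.23 ± 0.11), and Commd4 fell by 0.75 ± 0.12. With MAZ1310 8 of the 12 were called higher at 6 h than at 3 h, and with HF 0 were. The count of 8 became 1 in the fit with block and actin difference and 6 without the arrays numbered 2.

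Proteasome subunits fell in 15 of 39, with 0 higher, led by Psmd13 (-0.83 ± 0.09), a call lost without suffixed probe sets, and Psmc3 (-0.71 ± 0.10). Of 68 genes of RNA polymerase II and its Mediator and Integrator partners 20 fell and 2 rose, with Polr2g at -1.17 ± 0.11. Both counts of lower genes became 2 in the fit with block and actin difference, and 5 and 7 without the arrays numbered 2. Among nuclear pore and transport genes, 6 of 50 rose (12%) and 5 fell (10%), against 5.22% and 11.7% over all genes. These counts became 1 and 3 with block and actin difference and 2 and 3 without the arrays numbered 2. At 3 h 1 of this list had been higher and 11 lower. Aaas, a nucleoporin, stood at 9.92, 9.93 and 9.78 against 7.98, 7.98 and 8.02 (-1.88 ± 0.14), Xpo1, the main protein exporter, fell by 1.07 ± 0.09, and Xpot, which exports tRNA, rose by 0.94 ± 0.10.

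Cytosolic ribosomal proteins were called in 0 of 27 by limma in either direction, and 1 of them had an unadjusted p under 0.05. Their largest differences were Rpl14 (-0.31 ± 0.12, adjusted p = 0.094) and Rps15 (-0.23 ± 0.14, adjusted p = 0.31), and both were called lower when only the 6 arrays of 6 h were fitted. Ribosome biogenesis rose in 6 of 51 and fell in 1, and after cyclic loess rose in 12. Polr3k, of RNA polymerase III, was the member that fell (-0.94 ± 0.14). In the fit with block and actin difference 0 of the 51 were called. Of 35 translation factors 4 rose (11.4%) and 5 fell (14.3%), against 5.22% and 11.7% over all genes. Eif3c differed by 0.71 ± 0.09 and Eif2b4, of the exchange factor that phosphorylated eIF2a blocks, by -0.69 ± 0.10. With block and actin difference 1 of the 35 was higher and 1 lower, and without the arrays numbered 2 the counts were 2 and 2.

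Of 33 genes around mTORC1 4 rose and 7 fell. Eif4ebp1, which represses cap-dependent translation, rose by 2.40 ± 0.13 and Sesn2, a leucine sensor that ATF4 induces, by 1.14 ± 0.09, while Lamtor2 and Lamtor5, of the lysosomal scaffold, fell by 0.81 ± 0.12 and 0.66 ± 0.14. Both Lamtor calls were lost in the fit with block and actin difference, where 4 of the list were higher and 0 lower. Of 58 autophagy and lysosome genes 15 fell and 1 rose, with the protease Ctsb at -0.96 ± 0.10, and with block and actin difference 5 were lower and 0 higher. Laptm5, a lysosomal protein that lowers T cell receptor levels, stood at 11.66, 11.82 and 11.88 against 9.68, 9.73 and 10.07 (-1.96 ± 0.12), with 4 of 5 probe sets called lower. On its brightest probe set without a suffix it stood at 0.20 (adjusted p = 0.11). A suffix in a probe set's name warns that its probes may match more than 1 transcript.

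At 6 h 8 of 19 heat shock genes, which encode chaperones of the cytosol, nucleus and mitochondria, fell. The 1 that rose was the mitochondrial Hspa9 named above. At 3 h 13 of the list had been lower and 0 higher. With block and actin difference 3 were lower and 0 higher, and without the arrays numbered 2 the counts were 3 and 1. The difference between times was called for Hsph1, at -0.65 ± 0.12 after -1.58 at 3 h, and for Hspa4l, at -1.04 ± 0.13 after -0.18. Slc39a10, a zinc importer, differed by -1.47 at 3 h and -0.73 ± 0.10 at 6 h, and Slc19a2, a thiamine carrier, by -2.52 and -1.76 ± 0.16, where the difference between times was not called. Of 73 chromatin genes 7 rose (9.59%) and 10 fell (13.7%), against 5.22% and 11.7% over all genes. With block and actin difference 6 of the 73 were higher and 3 lower. In this list the remodeller Chd7 averaged 11.20 and 11.27 with the 2 compounds at 3 h. At 6 h Chd7 stood at 10.00, 9.77 and 10.10 with MAZ1310 and at 11.09, 11.06 and 11.29 with HF (1.19 ± 0.14). In all, 328 genes (1.8%) differed between the times, 161 (0.885%) in the higher and 167 (0.918%) in the lower direction. That count ran from 129 to 602 when single arrays were left out, with the highest without MAZ1310 replicate 1 at 3 h and the lowest without HF replicate 1 at 3 h, and was 38 without the arrays numbered 2.

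**Figure D4:**
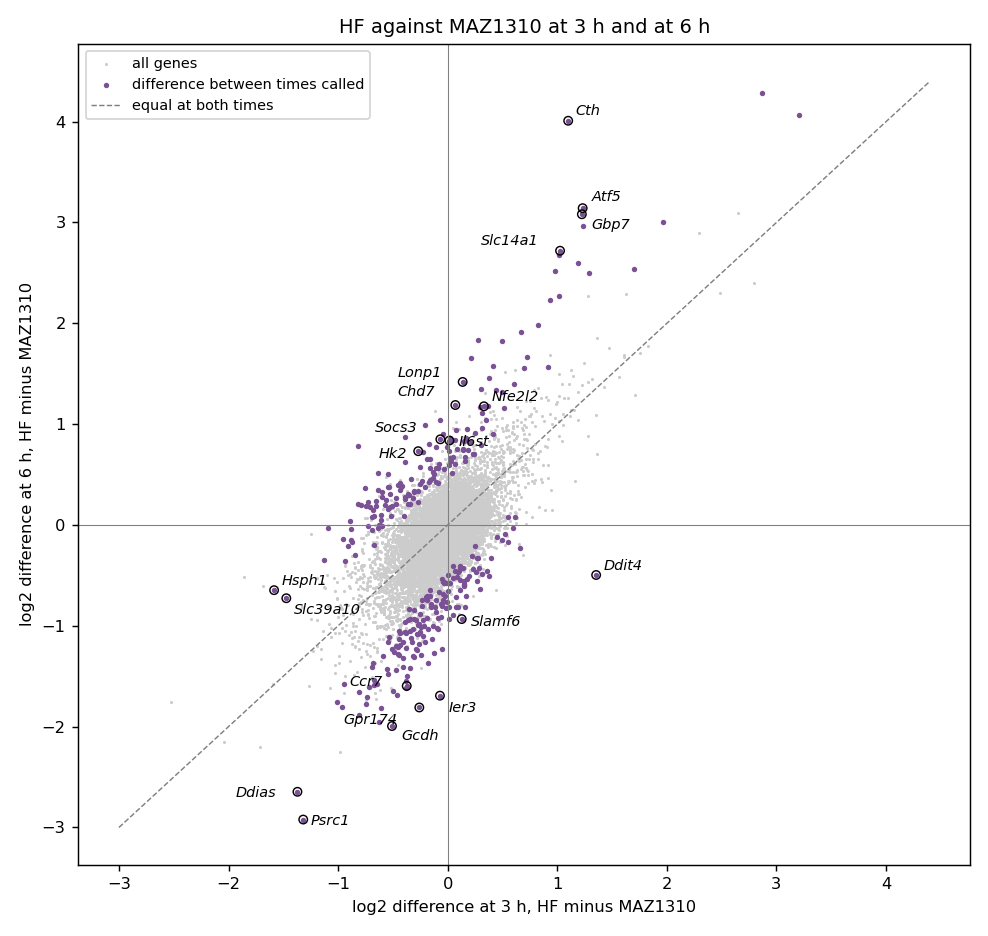
Each point is 1 of 18193 genes, with its log2 difference at 3 h on the horizontal and at 6 h on the vertical axis, from separate arrays; purple marks the 328 genes whose difference between times was called. Ddit4 lies at 1.35 and -0.50, and Ier3, Il6st and Lonp1 lie near 0 at 3 h only.

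**Figure D5:**
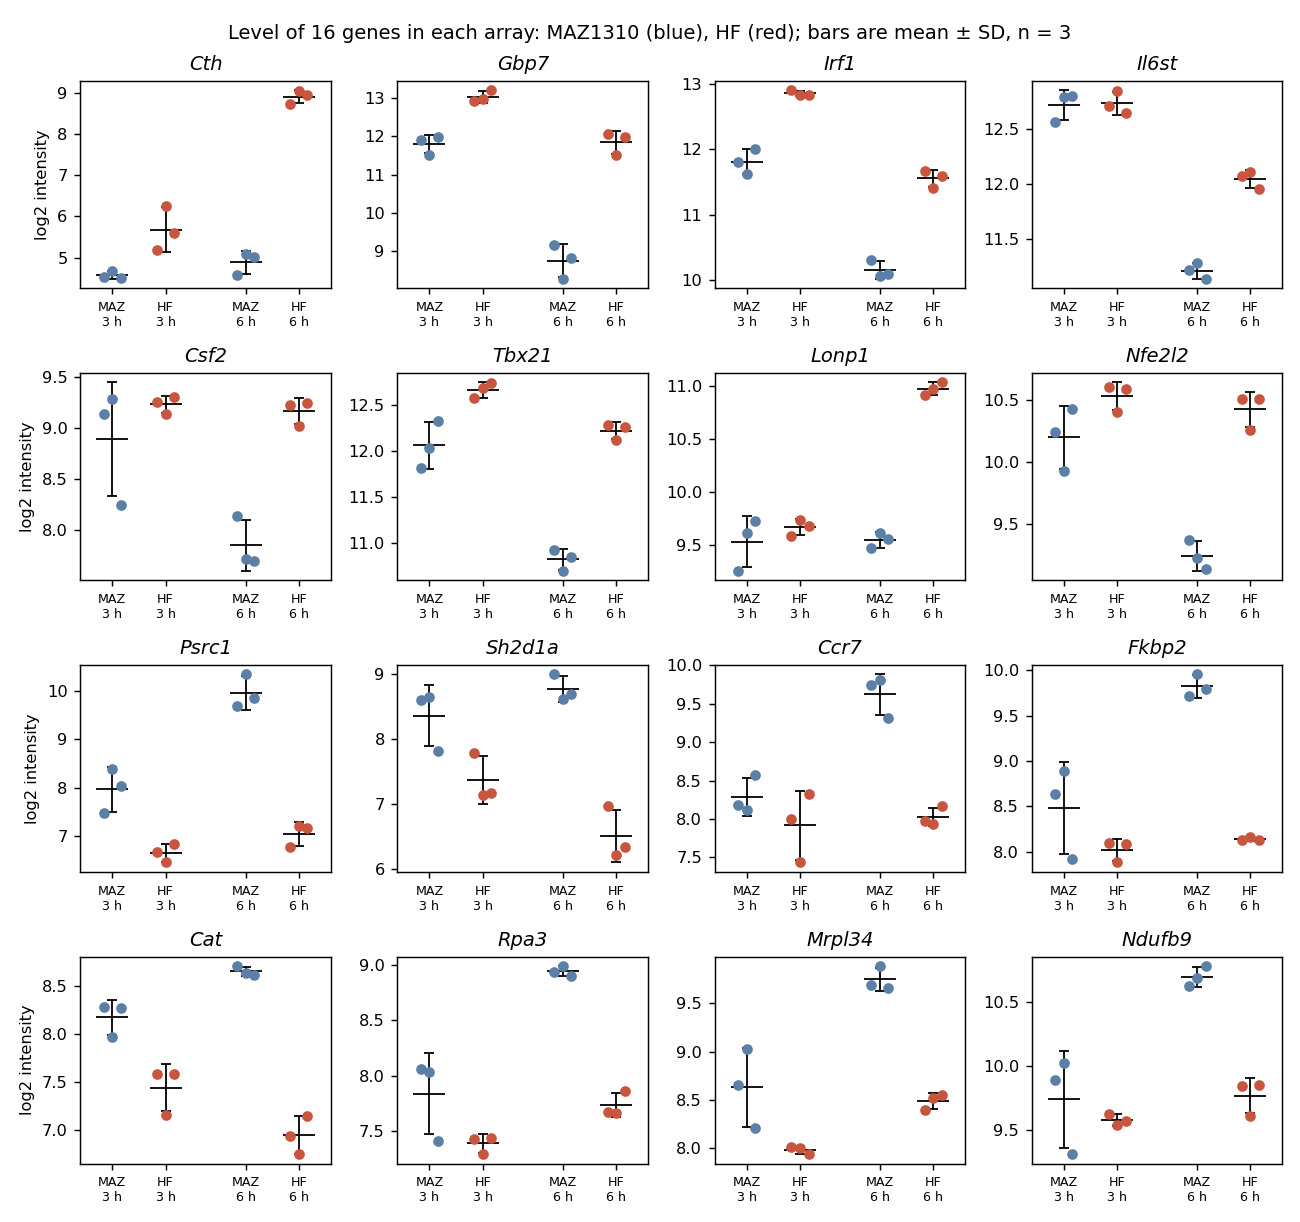
Dots are the log2 intensity of 16 genes in each of the 12 arrays, with mean ± SD (n = 3), MAZ1310 in blue and HF in red at 3 h and 6 h; axes differ by gene. The 16 were picked from called genes, and for some of them non-overlap was a condition for naming. At 6 h the groups do not overlap in any of the 16, against 36.8% of all genes without overlap. Gbp7 and Irf1 are lower at 6 h than at 3 h with both compounds.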

How the data were processed

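RNA of each sample was hybridised to 1 Affymetrix mouse expression array. The authors deposited linear intensity values from RMA, per the submitters' processing notes, with no version stated. RMA makes arrays comparable in distribution, so a shift common to all genes cannot be seen. Log2 was taken. Of 45101 probe sets, 34945 had 1 gene symbol, 932 had several and 9211 were not in the annotation used; the brightest probe set over the 12 arrays stood for each of 18193 genes, 9010 of which had more than 1. Differences were fitted with limma 3.58.1 in R 4.3.3 (lmFit, eBayes) as 4 group means over all 12 arrays, with Benjamini-Hochberg adjustment over all genes and a threshold of 0.05. The number of arrays limits the precision.

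Same-numbered arrays deviated together (correlations of 0.287, 0.381 and 0.391 at 6 h), so the numbers pair the samples. Named genes are up to 12 per direction by size, taken from called genes whose HF and MAZ1310 arrays at 6 h do not overlap. Up to 4 called members per direction in each of 68 lists were added, or the largest changes where none was called. Further genes had the largest called differences between times, or came from a fixed set named whatever its result, such as Il17a and Foxp3. The members and lists were chosen with earlier results of these data known. In simulated data of this design, 64 of 100 genes changed by a log2 of 0.5 and 99 of 100 changed by 1 were recovered. There 9 unchanged genes were called. The simulated arrays varied independently, unlike the same-numbered arrays here, and fewer genes changed than were called here, so recovery in these data may differ. Alternatives were the replicate block, with and without the actin covariate, cyclic loess, other probe set rules, an intensity trend, fewer arrays and single arrays left out; leaving out the arrays numbered 2 was chosen after seeing the data.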

Additional observations from a re-analysis of the deposited data

Results flagged for a closer look

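For 59 genes named above, the difference between HF and MAZ1310 at 6 h was not the same as at 3 h by limma's test of the difference between the times. It is given here as 6 h minus 3 h on the log2 scale. Some of these genes, such as Cth and Gpr174, were named because it was called. Among amino acid response genes it was 2.91 for Cth, 1.91 for Atf5, 1.66 for Slc7a3, 1.41 for Trib3, 1.22 for Slc6a9, 1.04 for Cebpb, 0.858 for Gpt2, 0.835 for Vegfa and -1.85 for Ddit4. Among interferon genes it was 1.86 for Gbp7, 1.73 for Gbp8, 1.41 for Gbp6, 1.17 for Irgm2, 0.798 for Nlrc5 and 0.65 for Tap1.

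In IL-6 signalling and helper T cell genes it was 0.917 for Socs3, 0.821 for Il6st, 0.59 for Stat3, 0.793 for Tbx21, 0.464 for Gfi1, 0.669 for Satb1, -0.788 for Bach2 and -1.62 for Ier3. For surface receptors it was 0.823 for Gpr18, -1.02 for Ccr8, -1.06 for Slamf6, -1.22 for Ccr7 and -1.55 for Gpr174. For p53 targets and cell cycle genes it was -1.6 for Psrc1, -1.27 for Ddias, -1.22 for Gtse1, -0.836 for Ei24, -0.805 for Spc25, -0.751 for Polk, -0.682 for Tubb5 and -0.619 for Cdkn1a.

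In folding and heat shock genes it was 0.624 for Dnajb9, 0.613 for Atf6, 0.938 for Hsph1, -0.713 for Pdia4, -0.847 for Pdia3, -0.856 for Hspa4l and -1.22 for Fkbp2. In metabolism and redox genes it was 1.28 for Lonp1, 1 for Hk2, 0.846 for Nfe2l2, 0.684 for Pfkp, -0.596 for Urod, -0.973 for Cat, -1.13 for Hadh and -1.49 for Gcdh. The remaining genes were Slc14a1 at 1.69, Chd7 at 1.12, Mnt at 0.952, Slc39a10 at 0.746, Ctsb at -0.57, Commd3 at -0.94, Aaas at -1.07 and Laptm5 at -1.33.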

How the results depend on the processing

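The 3085 genes called at 6 h became 910 when replicate block and actin covariate were fitted together, of which 881 kept call and direction (28.6% of the 3085), and 1737 without the 4 arrays numbered 2, of which 1708 did (55.4%). They ranged from 2288 to 3685 when single arrays were left out, and were 3714 with the replicate block alone. Genes changed at least 2-fold were 291, 206 when probe sets of a gene were averaged and 227 with block and actin covariate, where 112 rose and 115 fell (49.3% higher against 39.2%). Their range was 283 to 318 over single arrays left out.

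The 328 genes whose difference between times was called became 680 with the replicate block, 819 with block and actin covariate and 38 without the arrays numbered 2, with a range of 129 to 602 over single arrays left out. Of the named genes Laptm5 reversed, to 0.1994 on its brightest probe set without a suffix. Of 200 named genes 41 lost their call with block and actin covariate, 14 without the arrays numbered 2, 2 after cyclic loess and 1 with the mean of probe sets. Not all 200 had a probe set without a suffix. Of those that did, 160 were unchanged in call, 10 lost their call and 1, Laptm5, reversed. The replicate block alone changed no other call than those of Gata3, Cd74, Mpeg1 and Cd8b1. The cause of these changes was not tested. The number of arrays limits the precision.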
